A study of Mus musculus with 18 samples.

Results

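The genes associated with the parathyroid gland, 10 of the 54532 genes in the count table, were followed across 18 libraries of whole mouse larynx. They are Pth, Gcm2, Casr, Chga, Kl, Rhcg, Spink8, Sycp2l, Cdh20 and Mcoln3, taken by their symbols, each of which matched 1 row. They were put together because they were low after e-cigarette exposure and because their reads came and went with those of Pth from library to library, which means they were chosen by their measured counts in these same libraries. Their levels and their fold changes against air are thus given here as a description and not as independent evidence. The libraries came from male C57BL6/J mice, 8 to 9 weeks old, in 3 groups of 6, each exposed whole-body in a chamber, for 4 weeks of 5 days with 1 hour of exposure per day. The e-cigarette group received aerosol from JUUL Virginia tobacco devices, the smoke group received smoke of 3R4F research cigarettes, and the control group received room air. The study asked how the larynx transcriptome responds to each exposure relative to air and to the other exposure. Libraries held 16.7 to 22.5 M counts in the e-cigarette group, 15.9 to 20.3 M in the smoke group and 15.6 to 17.1 M in the air group. Whether a library stands for 1 animal is not stated in the labels. The p-values therefore measure the spread between these libraries, which may be technical.

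The parathyroid glands are small endocrine glands that lie on or in the thyroid, beside the larynx and trachea. Their chief cells secrete parathyroid hormone, the product of Pth, which raises blood calcium by acting on bone and kidney. The calcium-sensing receptor, encoded by Casr, detects calcium outside the cell and restrains hormone release, and the transcription factor GCM2 is needed for the gland to form and persist. Klotho, encoded by Kl, is the co-receptor through which the phosphate-regulating hormone FGF23 acts on the gland. The labels name the larynx alone as the tissue, and in bulk RNA fewer cells of a type and less RNA per cell cannot be told apart.

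The window upstream of the start of Pth and of Gcm2 is shown because Gcm2, the regulator of the gland, had the profile most like that of the hormone gene among the other 9, and because each window holds a match to a GATA core. Both are the 250 bases before the RefSeq gene start (GRCm38.p6), written 5′ to 3′ on the gene's strand. Capitals mark matches to AGATAA, the core of GATA factor sites, or TATAAA, the TATA box, on either strand.
Pth (chr7:113388574-113388823, minus strand): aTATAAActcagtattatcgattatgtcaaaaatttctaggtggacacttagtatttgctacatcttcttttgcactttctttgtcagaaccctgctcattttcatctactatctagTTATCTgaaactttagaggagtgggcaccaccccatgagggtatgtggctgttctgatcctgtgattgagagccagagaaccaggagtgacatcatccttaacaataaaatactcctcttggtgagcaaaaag
Gcm2 (chr13:41109989-41110238, minus strand): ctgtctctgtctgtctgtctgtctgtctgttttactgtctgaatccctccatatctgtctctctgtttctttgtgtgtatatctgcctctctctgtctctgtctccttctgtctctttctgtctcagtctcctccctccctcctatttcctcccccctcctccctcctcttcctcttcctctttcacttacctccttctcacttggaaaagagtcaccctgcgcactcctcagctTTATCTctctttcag
The Gcm2 window lies inside the gene as the count table gives it, which extends to position 41111035. RefSeq windows of 300 bases, 250 before and 50 after the start, were found for 9 of the 10 genes (not for Spink8). The Mcoln3 window, from 146121541 to 146121840, also lies inside its gene (146117450 to 146141806). Part of the 250 bases before the Sycp2l start (41114169 to 41114418) lies inside that gene, which starts at 41114307 in the deposited coordinates. AGATAA occurred in 2 of the 9, those of Pth and Gcm2, beside 11.2% of all 32851 windows. TATAAA occurred in 2 of the 9, 249 bases before the start of Pth and at base 6 after the RefSeq start of Chga, beside 13.6% of all windows. The 250 bases before that Chga start end at 102554940, while the gene starts at 102554969 in the deposited coordinates. The Chga match thus lies before the gene as the count table gives it. ATGCGGG, a core bound by GCM factors (1.41% of all windows), occurred in none of the 9 windows. The matches did not overlap one another, and a match is a description of the letters only.

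Pth (ENSMUSG00000059077, chromosome 7, 113385580 to 113388570, GRCm38) was either abundant or nearly absent. In e-cigarette libraries 1 to 6 it had 115, 16, 63, 0, 0 and 76 counts. In smoke libraries 1 to 6 it had 2, 38975, 1, 21382, 11608 and 98 counts, and in air libraries 1 to 6 it had 20221, 62254, 58347, 40, 33712 and 12857 counts. Thus 8 libraries held at least 11608 Pth counts, namely smoke 2, 4 and 5 and air 1, 2, 3, 5 and 6, and the other 10, which include the whole e-cigarette group, held at most 115. No library lay between 115 and 11608 counts. In CPM (counts scaled to a common library size, with library sizes scaled by the TMM method) Pth spanned 732 to 3742 in the 8 libraries and 0 to 6.03 in the other 10.

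**Figure D1:**
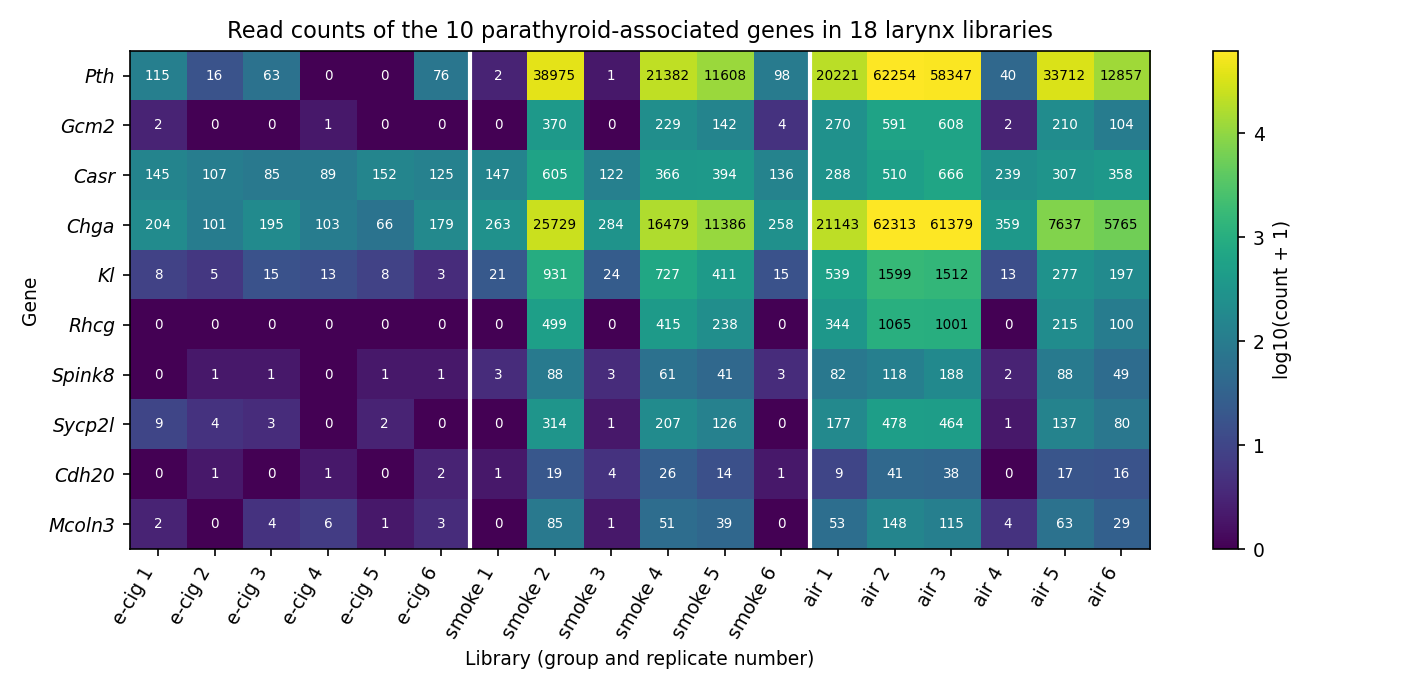
Read counts of the 10 genes (rows) in each of the 18 libraries (columns, with e-cigarette, smoke and air from left to right), coloured by log10(count + 1) with the count printed in each cell. All 10 genes are high together in smoke 2, 4 and 5 and in air 1, 2, 3, 5 and 6, and Casr and Chga keep 85 to 239 and 66 to 359 counts in the other 10 libraries.

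Gcm2 (ENSMUSG00000021362, chromosome 13, 41101427 to 41111035), the transcription factor of parathyroid precursors, followed the same division. It had 0 to 2 counts (median 0) in the e-cigarette group, 0 to 370 counts (median 73) in the smoke group and 2 to 608 counts (median 240) in the air group. Smoke 1, 3 and 6 had 0, 0 and 4 counts and air 4 had 2, against 104 to 608 in the 8 libraries with abundant Pth. Its neighbour Sycp2l (ENSMUSG00000038651, chromosome 13, 41114307 to 41174351), which belongs to the synaptonemal complex protein family of meiotic cells, starts 3271 bases from Gcm2 on the opposite strand. Sycp2l had 0 to 9 counts (median 2.5) in the e-cigarette group, 0 to 314 (median 63.5) in the smoke group and 1 to 478 (median 157) in the air group. The gene bodies of Gcm2 and Sycp2l do not overlap in the deposited coordinates.

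Rhcg (ENSMUSG00000030549, chromosome 7, 79593363 to 79617657), an ammonia transporter of epithelia, was the one gene of the 10 with no read at all in the 10 libraries low in Pth. It had 0 counts in each of the 6 e-cigarette libraries, 0 to 499 counts (median 119) in the smoke group and 0 to 1065 counts (median 279.5) in the air group. Its 3 zero values in smoke were libraries 1, 3 and 6, and its single zero in air was library 4. A count of 0 allows up to 0.134 to 0.18 CPM in e-cigarette, 0.148 to 0.189 CPM in smoke and 0.176 to 0.193 CPM in air libraries (3 counts of the total, counting error only), so a lower level would not have been detectable. Gm45170, an unconfirmed transcript annotated inside Rhcg on the same strand, had 15 to 60 counts in the 8 libraries with abundant Pth and 0 in the other 10, and reads of the 2 genes may have been split between them.

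Kl (ENSMUSG00000058488, chromosome 5, 150952607 to 150993817) had 3 to 15 counts (median 8) in the e-cigarette group, 15 to 931 (median 217.5) in the smoke group and 13 to 1599 (median 408) in the air group. Smoke 1, 3 and 6 and air 4 kept 13 to 24 counts of it, above or within the range of the e-cigarette libraries. Spink8 (ENSMUSG00000050074, chromosome 9, 109812280 to 109826633), a Kazal-type serine peptidase inhibitor, had 0 to 1 counts (median 1) in the e-cigarette group, 3 to 88 (median 22) in the smoke group and 2 to 188 (median 85) in the air group. Smoke 1, 3 and 6 and air 4 had 2 or 3 counts of it, more than any e-cigarette library. Mcoln3 (ENSMUSG00000036853, chromosome 3, 146117450 to 146141806), a cation channel of endosomes and lysosomes, had 0 to 6 counts (median 2.5) in the e-cigarette group, 0 to 85 (median 20) in the smoke group and 4 to 148 (median 58) in the air group. Cdh20 (ENSMUSG00000050840, chromosome 1, 104768529 to 104995481), a type II cadherin, was the scarcest, with 0 to 2 counts (median 0.5) in the e-cigarette group, 1 to 26 (median 9) in the smoke group and 0 to 41 (median 16.5) in the air group. For all 10 genes the lowest of the 8 libraries with abundant Pth held more counts than the highest of the other 10.

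Casr (ENSMUSG00000051980, chromosome 16, 36493696 to 36562141) and Chga (ENSMUSG00000021194, chromosome 12, 102554969 to 102565028), which encodes the secretory granule protein chromogranin A, kept at least 3.81 CPM in every library. Kl also had reads in every library, but as few as 3 counts. Casr was at 4.75 to 8.77 CPM (median 6.15) in the e-cigarette group, 6.87 to 33.1 CPM (median 13.7) in the smoke group and 14.0 to 42.7 CPM (median 19.2) in the air group. In the air and smoke libraries low in Pth it was at 9.38, 6.87 and 7.88 CPM (smoke 1, 3 and 6) and 14.0 CPM (air 4), against 17.3 to 42.7 CPM in the 8 libraries with abundant Pth. Chga was at 3.81 to 10.9 CPM (median 7.21) in the e-cigarette group, 14.9 to 1407 CPM (median 368) in the smoke group and 21.0 to 3936 CPM (median 853) in the air group. Smoke 1, 3 and 6 and air 4 held 14.9 to 21.0 CPM of Chga, above each of the 6 e-cigarette libraries and below the 337 CPM of the lowest of the 8.

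Per unit of gene length, Pth was by far the most abundant of the 10. In TPM (counts per gene length, scaled to a common total, computed from the counts and the deposited gene lengths), air medians were 6723 for Pth and 923 for Chga. The next were Rhcg at 22.1, Spink8 at 18.3, Gcm2 at 12.8, Casr at 12.6, Sycp2l at 9.84 and Kl at 7.73 TPM, followed by Mcoln3 at 2.96 and Cdh20 at 0.733 TPM. In each of the 8 libraries Pth exceeded Chga in TPM, and Chga exceeded the other 8 genes. From Rhcg to Kl each gene's range over the air libraries overlapped that of its neighbour in the order, so their order is not separated beyond the spread between libraries. In the e-cigarette group the order differed, with medians of 7.45 TPM for Pth, 6.20 for Chga and 3.09 for Casr and at most 0.152 TPM for the other 7.

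Within the 8 libraries with abundant Pth, the genes kept similar but not fixed proportions. For every 1000 counts of Pth there were 6.23 to 13.4 of Gcm2 (median 9.94), 6.38 to 20.5 of Rhcg (median 17.0), 1.87 to 3.36 of Mcoln3 (median 2.32) and 1.90 to 4.06 of Spink8 (median 3.04). Chga ranged more widely, with 227 to 1052 counts per 1000 of Pth (median 876, a 4.63-fold range). So did Kl with 8.22 to 35.4 (median 25.8, 4.31-fold) and Casr with 8.19 to 33.9 (median 14.8, 4.14-fold), beside 3.21-fold for Rhcg. Casr also kept 85 to 239 counts in the 10 libraries low in Pth, and the part of such reads in its ratio was not tested. Sycp2l had 4.06 to 10.9 (median 8.01) and Cdh20 had 0.445 to 1.24 (median 0.655). E-cigarette 1, with 115 Pth counts, was the only further library with at least 100 of them, and it had 1774 Chga and 1261 Casr counts per 1000 of Pth. It had no read of Rhcg, Spink8 or Cdh20. Smoke 6, e-cigarette 6 and e-cigarette 3 lay just below that limit, with 98, 76 and 63 Pth counts.

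Set against Gcm2 instead, a denominator chosen after the values were seen, the most stable partner was its neighbour Sycp2l, with 0.652 to 0.904 counts per Gcm2 count (a 1.39-fold range). Mcoln3 (1.59-fold) and Rhcg (1.88-fold) came next, Pth had a 2.15-fold range and Chga a 2.88-fold range, and Casr (3.99-fold) and the scarce Cdh20 (4.62-fold) varied most. Air 5 and air 6 differed from the other 6 libraries in the same direction for 6 genes. Pth was at 161 and 124 counts per Gcm2 count there, against 74.9 to 105 in the other 6, Spink8 at 0.419 and 0.471 against 0.200 to 0.309, and Mcoln3 at 0.300 and 0.279 against 0.189 to 0.275. Chga was at 36.4 and 55.4 against 69.5 to 105, Kl at 1.32 and 1.89 against 2.00 to 3.17, and Rhcg at 1.02 and 0.962 against 1.27 to 1.81. The same 2 libraries had the highest Calca levels of all 18 (2822 and 2246 CPM, against 2.25 to 1556 CPM in the others) and the 2 lowest sums of 6 cartilage genes (28.5 and 29.5 CPM, against 54.6 to 521 CPM), and the part of these in the proportions was not tested.

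**Figure D2:**
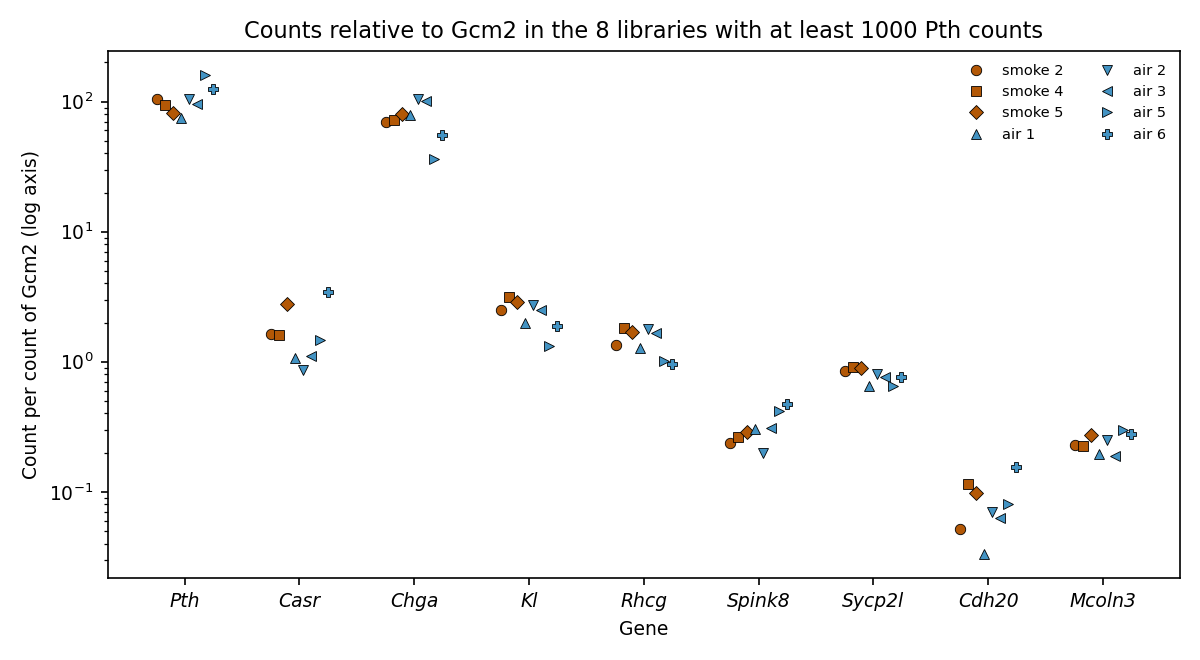
Counts of 9 genes per count of Gcm2 (log axis) in the 8 libraries with at least 1000 Pth counts, with 1 marker per library, smoke in orange and air in blue. Sycp2l stays between 0.652 and 0.904, while Chga spans 36.4 in air 5 to 105 in air 2.

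Against air, all 10 genes were lower in the e-cigarette group, the contrast from which they were drawn. Pth averaged 2.34 ± 2.41 CPM in e-cigarette libraries and 1868 ± 1523 CPM in air libraries (SD, n = 6 each), a log2 fold change of -9.62 (SE 2.27), and Casr, the least changed, averaged 6.37 ± 1.60 CPM and 23.6 ± 10.7 CPM (-1.89, SE 0.38). Chga was at -7.72 (SE 1.53), Spink8 at -6.94 (SE 1.24), Kl at -6.44 (SE 1.36), Sycp2l at -6.30 (SE 1.55), Cdh20 at -4.81 (SE 1.01) and Mcoln3 at -4.77 (SE 1.14). Rhcg, with 0 counts summed over the e-cigarette libraries and 2725 over the air libraries, was at least 994-fold lower (3 counts over the group as the floor). Gcm2 had 3 counts summed over the e-cigarette libraries and 1785 over the air libraries, 651 times fewer after scaling for depth (95% counting interval 222 to 3159). All 10 had an adjusted p below 0.05 in edgeR's quasi-likelihood test, beside 13% of all 17537 tested genes called lower and 12.1% called higher, and nothing is read from this count because the contrast chose the genes. The median log2 fold change of the 10 was -6.69, with Rhcg at its bound or as fitted, beside 0.01 over all tested genes. In CPM the e-cigarette libraries lay wholly below the air libraries for 4 of the 10 (Gcm2, Casr, Chga and Spink8), beside 6% of tested genes. For Gcm2 only the scaling parted them, since e-cigarette 1 and air 4 both had 2 counts (0.105 and 0.117 CPM). For Spink8 the e-cigarette libraries had at most 1 count and air 4 had 2. Air 4 overlapped the e-cigarette range for the other 6 genes. Without e-cigarette 2, 4, 5 and 6, the libraries with the least thyroglobulin RNA, none of the 10 was called with the 2 e-cigarette libraries that remain. Most log2 fold changes were then of similar size (-8.62 for Pth, -7.22 for Chga and -1.95 for Casr). Cdh20, with 0 counts in e-cigarette 1 and 3, moved from -4.81 to -7.41. With voom and sample quality weights 1 of the 10 was called. Over all tested genes, edgeR called 4406 in either direction and voom 4301, while 688 were called without those 4 e-cigarette libraries.

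Smoke libraries did not differ detectably from air libraries in any of the 10 genes. Pth averaged 654 ± 851 CPM in smoke and 1868 ± 1523 CPM in air (SD, n = 6 each), a log2 fold change of -1.51 (SE 1.57, edgeR adjusted p = 0.629). Gcm2 averaged 6.79 ± 8.26 CPM in smoke and 17.9 ± 15.5 CPM in air (-1.39, SE 1.03, edgeR adjusted p = 0.480). The 10 fold changes were all below 0, from -1.68 for Chga (SE 1.16) to -0.50 for Casr (SE 0.37), with a median of -1.35 beside 0.01 over all tested genes. The edgeR adjusted p-values lay between 0.277 (Spink8) and 0.629 (Pth), and 0 of the 10 were called beside 0.616% of tested genes called lower and 0.975% called higher. At an unadjusted p below 0.05 the count was also 0, and DESeq2 and voom called 0 as well. The standard errors of 0.37 to 1.57 leave differences of several fold undetectable here. Both groups hold libraries of either kind, 3 of 6 low in Pth in smoke and 1 of 6 in air, and their ranges overlapped for all 10 genes, while 0.89% of tested genes lay wholly lower in smoke.

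Against smoke, the e-cigarette group had lower levels of 8 of the 10 genes by edgeR at an adjusted p below 0.05, beside 10.4% of all tested genes called lower and 6.1% called higher. This contrast shares the e-cigarette libraries with the one that chose the genes, so the count is given as a description. Pth was at -8.11 (SE 2.15), Chga at -6.04 (SE 1.42), Spink8 at -5.42 (SE 1.31), Kl at -5.34 (SE 1.34), Sycp2l at -5.12 (SE 1.56), Cdh20 at -3.83 (SE 1.08) and Casr at -1.39 (SE 0.38). Gcm2 had 3 counts against 745 over the smoke group, 262 times fewer after scaling (95% counting interval 89.3 to 1274). Rhcg, with 0 against 1152 counts, at least 405-fold lower, and Mcoln3 (-3.44, SE 1.18) were not called (edgeR adjusted p = 0.0541 and 0.0575). In CPM the e-cigarette libraries lay wholly below the smoke libraries for Chga, Kl and Spink8, beside 6.65% of tested genes. For Kl only the scaling parted them, since e-cigarette 3 and smoke 6 both had 15 counts (0.838 and 0.869 CPM). For Spink8 the e-cigarette libraries had at most 1 count and the smoke libraries at least 3. None of the 10 was called without e-cigarette 2, 4, 5 and 6, which leaves 2 libraries. Log2 fold changes of Pth, Chga and Casr were then of similar size (-7.09, -5.52 and -1.43). The lowest value of Cdh20 over all alternatives was -6.4, against -3.83 in the main fit. With no filter on low counts 5 were called, and with voom 1.

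**Figure D3:**
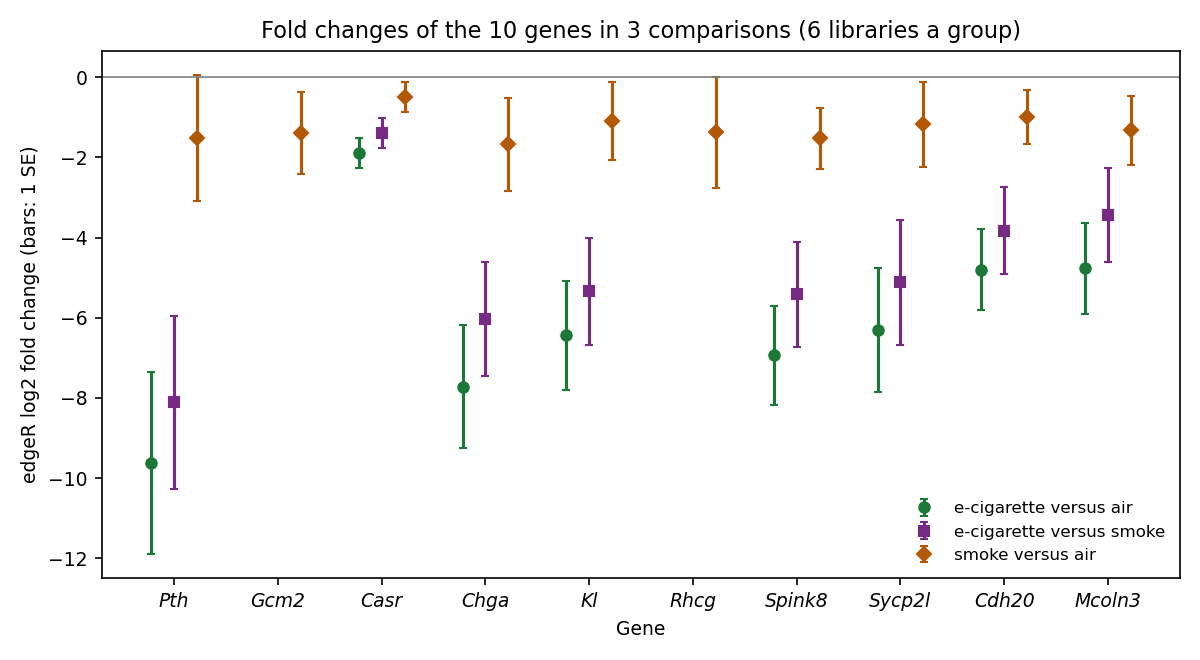
Fitted log2 fold changes of the 10 genes (points, with bars of 1 SE) for e-cigarette versus air, e-cigarette versus smoke and smoke versus air, with 6 libraries in each group. The e-cigarette points of Gcm2 and Rhcg are left out because that group held 3 and 0 counts, and the smoke versus air points lie between -1.68 and -0.50 beside e-cigarette points of -1.39 to -9.62.

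The libraries low in Pth fell into sets that differed in thyroid transcripts. In the e-cigarette group, Tg, which encodes thyroglobulin of thyroid follicles, was at 26496, 744, 28860.2, 92.8, 83.3 and 2798 CPM in libraries 1 to 6, and the libraries with 0 Pth counts, 4 and 5, were the 2 with the least Tg. Smoke 1, 3 and 6 and air 4, by contrast, held 59703 to 97158 CPM of Tg, within 55431 to 97158 CPM over all air and smoke libraries. Calca, which encodes calcitonin, the hormone of thyroid C cells, was at 949.9 to 1395 CPM in those 4 libraries, against 2.25 to 244 CPM in the e-cigarette group. Of 13 thyroid follicle genes 10 were lower and 1 higher by edgeR in e-cigarette versus air (summed level 146 to 29342 CPM in e-cigarette, 58202 to 95684 CPM in smoke and 57249.6 to 99016 CPM in air). Of 8 C cell genes 7 were lower (49.6 to 383 CPM in e-cigarette, 1218 to 1788 CPM in smoke and 1574 to 3434 CPM in air). Nkx2-1 is in both lists. No gene of either list was at 0 in any library. In smoke versus air edgeR called none of either list (0 and 2 genes at an unadjusted p below 0.05, and 0 by DESeq2 and voom). The part of the thyroid transcripts in the e-cigarette values of the 10 genes was not tested.

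**Figure D4:**
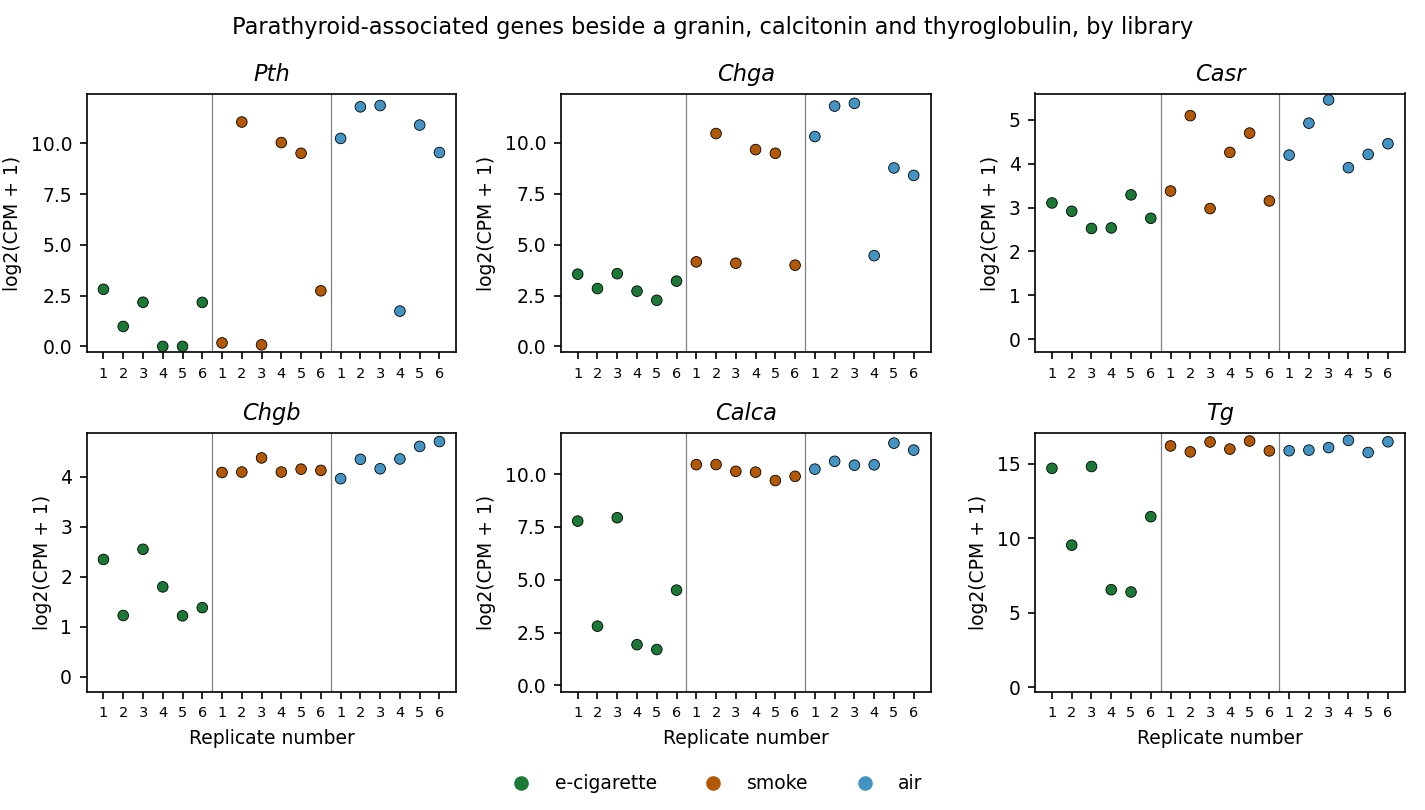
Level of 6 genes as log2(CPM + 1) in each library (points), by replicate number within the e-cigarette, smoke and air groups. Pth and Chga are low in smoke 1, 3 and 6 and in air 4, while Chgb, Calca and Tg lie at 14.6 to 25.1, 827 to 2822 and 55431 to 97158 CPM in the 12 smoke and air libraries, above each e-cigarette library.

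Granins and prohormone convertases pack and cut peptide hormones in endocrine granules, and exocytosis proteins release them. Of 30 tested genes of regulated secretion, a list of all these kinds that includes Chga, 13 were lower and 1 higher by edgeR in e-cigarette versus smoke, and 11 were lower and 3 higher in e-cigarette versus air (medians -0.23 and -0.19, beside 0.01 over all tested genes each). The list shares Chgb and Scg2 with the C cell list. The granin Chgb, which encodes chromogranin B, fell by 2.68 on the log2 scale against smoke (SE 0.26, adjusted p = 1.09e-05), and Scg3 fell by 2.35 (SE 0.22). The convertases Pcsk1 and Pcsk2 fell by 1.89 (SE 0.23) and 2.9 (SE 0.36). Pcsk1n, whose product inhibits the Pcsk1 convertase, fell by 2.49 (SE 0.37), and the granule membrane gene Ptprn fell by 2.23 (SE 0.24). The edgeR adjusted p-values were 4.75e-06 to 0.000176 for the 5 genes from Scg3 to Ptprn. In smoke 1, 3 and 6 and air 4 each of these 6 genes overlapped the range of the 8 libraries with abundant Pth, which Chga did not. Chgb was at 16.0 to 19.8 CPM there and 14.6 to 25.1 CPM in the 8 libraries with abundant Pth, against 1.33 to 4.86 CPM in the e-cigarette group. Pcsk2 likewise was at 44.1 to 55.8 CPM in those 4, within the 41.8 to 69.1 CPM of the 8, against 2.97 to 13.9 CPM in the e-cigarette group. None of the 30 was called by edgeR in smoke versus air (4 at an unadjusted p below 0.05, 0 by DESeq2 and 1 by voom).

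Of 18 tested regulators of parathyroid development, 4 were lower in e-cigarette versus air by edgeR (among them Gcm2, Gata3 and Men1) and 3 higher (Eya1, Six4 and Pax9), with a list median of 0.29, and voom called 1 lower and 6 higher. Gata3, a zinc-finger factor required for the gland, averaged 2.23 ± 0.84 CPM in e-cigarette libraries and 6.39 ± 5.06 CPM in air libraries (-1.51, SE 0.47, edgeR adjusted p = 0.0238). It was at 1.86 to 3.07 CPM in smoke 1, 3 and 6 and air 4, and at 2.28 to 13.1 CPM in the 8 libraries with abundant Pth, where air 5 and air 6 were the lowest. Gcm2 fell while Eya1, Six4 and Pax9 rose against smoke too (0.38, 0.47 and 0.49, edgeR adjusted p = 0.00438, 0.0140 and 0.0184), and the list median was then 0.11. The library values of Gata3, and those of Vdr, Pth1r, Pthlh and Mcoln2 given next, were picked for description after they had been seen. In smoke versus air edgeR, DESeq2 and voom each called 0 of the 18 (3 at an unadjusted p below 0.05, median 0.10).

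Among 23 tested genes of calcium and mineral homeostasis, 6 were lower in e-cigarette versus air by edgeR (Casr, Kl, Vdr, Cyp27b1, Gna11 and Slc20a1) and 5 higher (Slc34a2, Slc20a2, Phex, Enpp1 and Tnfrsf11b), with a median of 0.13. Vdr, the vitamin D receptor that represses Pth transcription, was at 9.17 to 15.6 CPM in the e-cigarette group, 12.6 to 19.1 CPM in smoke 1, 3 and 6 and air 4, and 15.7 to 59.8 CPM in the 8 libraries with abundant Pth. Its ranges in those 4 libraries and in the 8 thus overlapped, unlike those of Pth. Against smoke, 4 genes fell (Casr, Kl, the G protein gene Gna11 by 0.28 and the calcium channel gene Trpv6 by 0.73) and 2 rose (the phosphate transporter gene Slc34a2 by 0.83 and the calcium pump gene Atp2b1 by 0.27), with a median of 0.06. In smoke versus air 1 of the 23 fell and none rose by edgeR (5 at an unadjusted p below 0.05; 1 lower and 1 higher by DESeq2, 1 lower and 3 higher by voom), the phosphate transporter gene Slc20a1 (-0.64, SE 0.13, edgeR adjusted p = 0.0215), and the median was 0.10. The hormone's receptor gene Pth1r averaged 4.03 ± 1.40 CPM in e-cigarette, 5.18 ± 1.69 CPM in smoke and 2.59 ± 1.01 CPM in air libraries, and passed the test in no comparison (edgeR adjusted p 0.0697 to 0.406).

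Family members of the 10 genes, 35 in the list, were compared between groups. The 10 had been chosen for their pattern with Pth, so a difference from their relatives follows from that choice. Of 19 tested relatives, 1 was lower in e-cigarette versus air by edgeR, the granin Chgb, and 5 were higher (Sycp2, Cdh19, Cdh10, Cdh11 and Mcoln2, at 0.74 to 1.52), with a list median of 0.27. Chgb is also in the regulated secretion and C cell lists, so its fall is not a separate observation here. Mcoln2, a channel of the same family as Mcoln3, averaged 14.7 ± 3.60 CPM in e-cigarette libraries and 5.87 ± 3.65 CPM in air libraries (1.33, SE 0.32, edgeR adjusted p = 0.00514). Pthlh, which encodes the hormone related to parathyroid hormone, averaged 3.01 CPM in e-cigarette, 2.78 CPM in smoke and 3.09 CPM in air libraries (edgeR adjusted p 0.805 to 0.933 over the 3 comparisons), and Gcm1 had 0 counts in all 18 libraries. Against smoke, Chgb was again the only relative called lower and none was called higher (median 0.11). In smoke versus air edgeR called 0 of the 19 (5 at an unadjusted p below 0.05, 3 higher by DESeq2 and 1 by voom, median 0.37).

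Outside the 10, the gene with the profile most like that of Pth was Cryba2, which encodes a beta-crystallin. Likeness was measured as Spearman's rho of log2(CPM + 1) with Pth over the 18 libraries, which share the division into 8 and 10, and is given as a description. Cryba2 reached a rho of 0.900 over the 18 libraries and 0.952 within the 8, next to 0.908 and 0.952 for Gcm2. It was at 0.0540 to 0.786 CPM in the e-cigarette group, 0.290 to 9.02 CPM in smoke and 0.819 to 18.3 CPM in air, with smoke 1, 3 and 6 and air 4 at 0.290 to 0.819 CPM and the 8 libraries at 3.09 to 18.3 CPM. The other 11 protein-coding genes most like Pth were Prpf38b, Zdhhc2, Nsun7, Fbxo2, Tspan6, Ints6l, Arl4d, Nell1, Cldn6, Gng12 and Pkib (rho 0.811 to 0.890). Symbols of Gm and a number, or ending in Rik, were left out of this choice. Most of the 11 genes were well above 0 in the libraries low in Pth. Tspan6, a tetraspanin, was at 16.3 to 23.8 CPM in those 10 and 34.3 to 86.4 CPM in the 8, and Ints6l at 49.9 to 68.0 CPM and 90.7 to 225 CPM. In 7 of the 12 genes the 8 libraries lay wholly above the other 10, a direction that the choice by likeness fixes, and in Arl4d, Nell1, Cldn6, Gng12 and Pkib the ranges overlapped. Among the 10 genes themselves rho with Pth was 0.776 (Cdh20) to 0.908 (Gcm2) over 18 libraries, and within the 8 it was 0.952 for Gcm2 and Mcoln3, 0.929 for Spink8 and lowest for Casr at 0.524.

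Summed markers of other tissues near the larynx overlapped between the 8 libraries with abundant Pth and the other 10. The 6 thymus epithelium genes summed to 11.4 to 14.5 CPM in e-cigarette, 11.1 to 17.7 CPM in smoke and 12.8 to 23.5 CPM in air libraries, and 4 brown fat genes to 93.2 to 194, 146 to 223 and 131 to 174 CPM. Of 6 thymocyte genes, Rag1, Rag2, Dntt and Ptcra were at 0 in 12 to 16 of the 18 libraries, and the sum stayed between 0.346 and 1.52 CPM. Markers of tissues that the larynx contains, which are not specific to it, were present in every library, with none at 0. They covered cartilage (6 genes, 104 to 521, 137 to 501 and 28.5 to 290 CPM in e-cigarette, smoke and air), skeletal muscle (4 genes, 17481 to 24702, 13102 to 19860.5 and 8032 to 17678 CPM), squamous epithelium (5 genes, 6987 to 22021, 3213 to 19025 and 3426 to 9838 CPM) and ciliated epithelium (4 genes, 504 to 685, 365 to 424 and 425 to 616 CPM). The 10 genes themselves summed to 11.5 to 25.4 CPM in e-cigarette, 24.8 to 3696 CPM in smoke and 38.6 to 7972 CPM in air libraries.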

How the data were processed

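Whole mouse larynx was profiled by mRNA sequencing in 18 libraries, 6 per group. Per the labels' protocols, RNA was purified with a PureLink kit and made into libraries with an NEBNext Ultra kit that keeps no strand information. The submitters' processing notes name STAR and featureCounts 1.5.0-p3, with GRCm38 (mm10). The sources used here give neither the annotation release nor the strand setting. The authors deposited raw counts per gene, with coordinates and a gene length. Every column matched the title of 1 sample.

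From these counts, edgeR 4.0.16 (R 4.3.3) fitted all 3 groups together with TMM scaling and robust quasi-likelihood tests, after filterByExpr (minimum count 10, minimum total 15) kept 17537 genes. Benjamini-Hochberg adjustment ran over all of them, and a gene was called at an adjusted p below 0.05. The SE is the absolute log2 fold change divided by the square root of F. TPM came from the counts and the deposited lengths. DESeq2 1.42.0 and limma 3.58.1 (voom) were alternatives, beside other scalings, no filter, 2 groups alone, a replicate block and leaving out each library. On simulated data for e-cigarette versus air (17196 genes), the test recovered 74%, 98%, 100% and 100% of 50 genes changed by 2-, 4-, 16- and 64-fold. It also called 15 unchanged genes. The changed genes were drawn from those above 1 CPM in air and were not simulated as on or off by library. These shares therefore do not give the power for the 10 genes. No 2 libraries of a group were copies of each other: over 45 pairs, chi-square divided by its degrees of freedom was 16.8 to 149. Intervals and limits of detection cover counting error only.

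The 10 genes, the lists and the motifs were chosen with earlier results of these data known. Named beside them are list genes called in smoke versus air or e-cigarette versus smoke, up to 6 per list by smallest p, list genes behind a count of 5 or fewer, and the 12 other protein-coding genes most like Pth by Spearman's rho (mean of at least 1 CPM in a group). Pearson's r decided ties. One gene of the development list and 1 searched motif are not reported here.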

Additional observations from a re-analysis of the deposited data

How the results depend on the processing

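Of the 10 genes, all were called lower in e-cigarette versus air with DESeq2, other scalings, no filter, and each library left out in turn (10 to 10). With the 2 groups alone, the filter on low counts left 4 of the 10 (Pth, Casr, Chga and Kl) to test, and all 4 were called. With voom and sample quality weights 1 was called, beside 4301 of all tested genes in either direction (4406 by edgeR). Without e-cigarette 2, 4, 5 and 6, an alternative added after seeing the data that leaves 2 e-cigarette libraries, 0 were called. Most log2 fold changes then stayed of similar size (Pth -8.62, Chga -7.22, Kl -6.06, Casr -1.95), while Cdh20 moved from -4.81 to -7.41. Of all tested genes 688 were called. In e-cigarette versus smoke the count of 8 became 5 with no filter, 4 of the same 4 tested with the 2 groups alone, 1 with voom, 0 without those 4 libraries (Pth -7.09, Chga -5.52), and 6 to 10 with each library left out, 6 being without smoke 4. In smoke versus air no alternative called any of the 10, and Cdh20 turned to 0.37 with voom (adjusted p = 0.868). Replicate numbers did not pair the libraries: 4 of 18 same-numbered pairs had a correlation above 0.1 (range -0.498 to 0.216) and 0 of 18 libraries correlated best with their own number. With the number as a replicate block, 9, 0 and 4 of the 10 were called in e-cigarette versus air, smoke versus air and e-cigarette versus smoke. The cause of these changes was not tested, beyond the fewer libraries or genes that some alternatives use. All tested genes called in smoke versus air numbered 279 by edgeR, 970 by DESeq2 and 1114 by voom.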
